A study of Mus musculus with 12 samples.

Results

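Kalrn, Trio, Syne1, Syne2, Macf1, Dst, Ank2, Ank3, Sptan1 and Sptbn1 encode very large proteins that tie membranes, nuclei and signalling sites to actin and microtubules. Their transcripts were examined for enrichment by an antibody against 5-methylcytosine (m5C), a methylated base of RNA, in mouse hippocampus. The 10 genes were chosen by their number of m5C peaks in these same lists, so the number of peaks per gene is a description here and not a finding. A peak is a stretch in which RNA captured by the antibody (IP) exceeded the untreated RNA of the same sample (input). Peaks lying on the strand of a gene and overlapping its protein-coding span by at least 1 base were assigned to it, and overlapping or touching peaks of the 6 lists were joined into regions. The 10 genes held 276 of the 24020 regions found in all protein-coding genes.

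The hippocampi came from female C57BL/6 mice of wild-type (WT) genotype, either young at 3 months or left to age naturally to 18 months. There were 12 libraries, 3 IP and 3 input at each age, and 1 peak list for each IP and its input. The labels name no agent, transgene or pooling of animals. Whether each sample was a mouse of its own is not stated, so p-values refer only to how these samples separate by age. The spread among samples of an age may be technical. Each list gives positions and the authors' own score per peak, with no read counts, so the depth behind each list is unknown.

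As background, m5C in RNA is written by methyltransferases of the NSUN family and by TRDMT1, and has been described in transfer, ribosomal and messenger RNA. Spectrins form a lattice under the plasma membrane of axons and dendrites. Ankyrins bolt ion channels and adhesion proteins to that lattice, most famously at the axon initial segment. Spectraplakins and nesprins carry spectrin-like repeats and link filament systems to one another or to the nuclear envelope, while Kalrn and Trio are activators of small GTPases that shape dendritic spines and growing axons.

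The sequences below are the stretches of these genes that lie in a region and are held by the RefSeq promoter table of GRCm38.p6 (the mm10 build). They are written 5′ to 3′ on the strand of the gene, with bases inside a region in capitals. The first is 250 bases from the interior of the widest region of all 10 genes, in Ank2, at chr3:126943387-126943636 on the minus strand. The others show the 30 bases before and the first 30 bases after an annotated transcript start that a region touches, at chr4:123684331-123684390 (minus), chr11:30219743-30219802 (minus) and chr2:29965530-29965589 (plus).
Ank2 interior: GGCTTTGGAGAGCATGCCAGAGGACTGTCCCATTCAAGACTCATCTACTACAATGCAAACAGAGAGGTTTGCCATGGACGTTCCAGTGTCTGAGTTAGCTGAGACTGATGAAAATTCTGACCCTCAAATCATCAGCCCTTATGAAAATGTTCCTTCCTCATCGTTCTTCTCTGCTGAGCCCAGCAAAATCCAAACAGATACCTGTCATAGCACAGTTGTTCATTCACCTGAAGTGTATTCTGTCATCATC
Macf1 start: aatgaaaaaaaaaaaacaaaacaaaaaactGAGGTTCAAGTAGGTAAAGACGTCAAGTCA
Sptbn1 start: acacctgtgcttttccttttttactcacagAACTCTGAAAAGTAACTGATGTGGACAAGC
Sptan1 start: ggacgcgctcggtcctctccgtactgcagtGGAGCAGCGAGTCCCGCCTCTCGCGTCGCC

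In the Ank2 interior, 64 of 250 bases were C (25.6%), and the median over the first 250 bases of 32817 promoter windows was also 25.6%. On the gene's strand it held neither CTCCA, the motif known for the writer NSUN6, nor CNGGG, the motif known for NSUN2. Of the promoter windows, 34.5% held CTCCA and 73.7% held CNGGG. Those 250 bases lie before an annotated start and were not chosen to lie in RNA or in a peak. They are thus not a matched background for the Ank2 piece. The Ank2 piece lay just before an annotated internal start. The rest of the 6198-base region was not searched, so the motifs are not shown to be absent from it. The 3 start pieces differed in their lists. The region at the Macf1 start had a peak in all 6 lists, the one at the Sptbn1 start in 2 aged lists, and the one at the Sptan1 start in 1 young list. The Macf1 and Sptbn1 starts lie inside their spans, and the Sptan1 start is the start of its span. Of 16 promoter windows found for 9 of the 10 genes, 4 touched a region, the Ank2 interior window among them.

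The lists differed in length, from 8549 to 10392 peaks at 3 months and from 14008 to 15189 at 18 months, a ratio of means of 1.51. The 10 genes took 129, 92 and 132 peaks of the young lists (118 ± 22.3, SD, n = 3) and 203, 169 and 199 of the aged lists (190 ± 18.6, SD, n = 3), a difference of 72.7 peaks and a ratio of 1.62. Every aged list was above every young list. As a share of the list, the genes held 1.30%, 1.08% and 1.27% at 3 months and 1.34%, 1.21% and 1.39% at 18 months, and on this scale the ages overlapped. When each list was reduced to its 8549 highest-scoring peaks, the length of the shortest, the sums were 117, 92 and 117 in young and 134, 128 and 134 in aged lists, a difference of 23.3. The lists of equal length therefore still did not overlap, with a smaller gap. No such sum is given for other genes. Of the 254 genes with at least 10 regions, equal-length aged lists were all above young in 11.4% and all below in 1.97%. Over all genes with a peak these shares were 3.38% and 3.41%, without such a tilt. The 254 genes, like the 10, were chosen by peaks of the lists as deposited, of which the aged were longer. How far that choice favours genes with more peaks in aged lists was not tested. The second young list was the shortest and the lowest sum. Without it the difference of the lists as deposited was 59.8 peaks.

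All 6 neuronal markers looked at (Rbfox3, Snap25, Syt1, Camk2a, Grin1 and Map2) and all 3 hippocampal neuron markers (Prox1, Zbtb20 and Neurod6) had a peak in all 6 lists. A peak in any list was seen for 5 of 5 astrocyte markers, 4 of 4 oligodendrocyte markers, 1 of 5 microglial markers, 2 of 3 endothelial markers and 1 of 3 choroid plexus markers. Most of the glial and vascular markers with a peak were in 2 or 3 lists of each age (Gfap, Slc1a3, Slc1a2, Aqp4, Mag, Mobp, Cx3cr1 and Flt1). Aldh1l1 of astrocytes and Pecam1 of endothelium had a peak in 3 aged and 0 young lists, Mbp in 1 aged and 0 young, and Mog and Ttr in 1 young and 0 aged. The part of other cell types in the counts of the 10 genes was not tested. Because whole tissue was used, more cells of a type, more RNA of a gene per cell and more modification of that RNA cannot be told apart in a peak count.

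For each gene, the 3 aged counts were set against the 3 young counts with a two-sided exact permutation test, in which 3 against 3 cannot give a p below 0.1, so that no gene could pass 0.05. In 8 of the 10 genes every aged list held more peaks than every young list, and in none was the reverse seen. The same held for 11.8% of all 9527 genes with a peak and for 56.7% of the 254 genes with at least 10 regions, which are closer to the 10 in number of peaks. These 254 genes were chosen by regions pooled over the lists as deposited. Genes with more peaks in the longer aged lists could thus enter that background more easily. Every young list was above every aged list in 0.945% of all genes and in 0 of the 254 genes. The median ratio of aged to young peaks was 1.55 over the 10 genes and 1.53 over the 254 genes, whose quartiles were 1.28 and 1.89. At equal list length the count of genes with aged lists all above young fell to 4 of 10 (Kalrn, Dst, Sptan1 and Sptbn1), against 11.4% of the 254 genes and 3.38% of all genes. The reverse held for 0 of 10, against 1.97% of the 254 genes and 3.41% of all genes. Per 1000 peaks of the list, a scale added after the data were seen, aged lists were all above young in 2 of 10 (Kalrn and Sptan1), against 15.7% of the 254 genes and 8.08% of all genes. On that scale the reverse held for 0 of 10 and for 15.7% of the 254 genes.

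**Figure D1:**
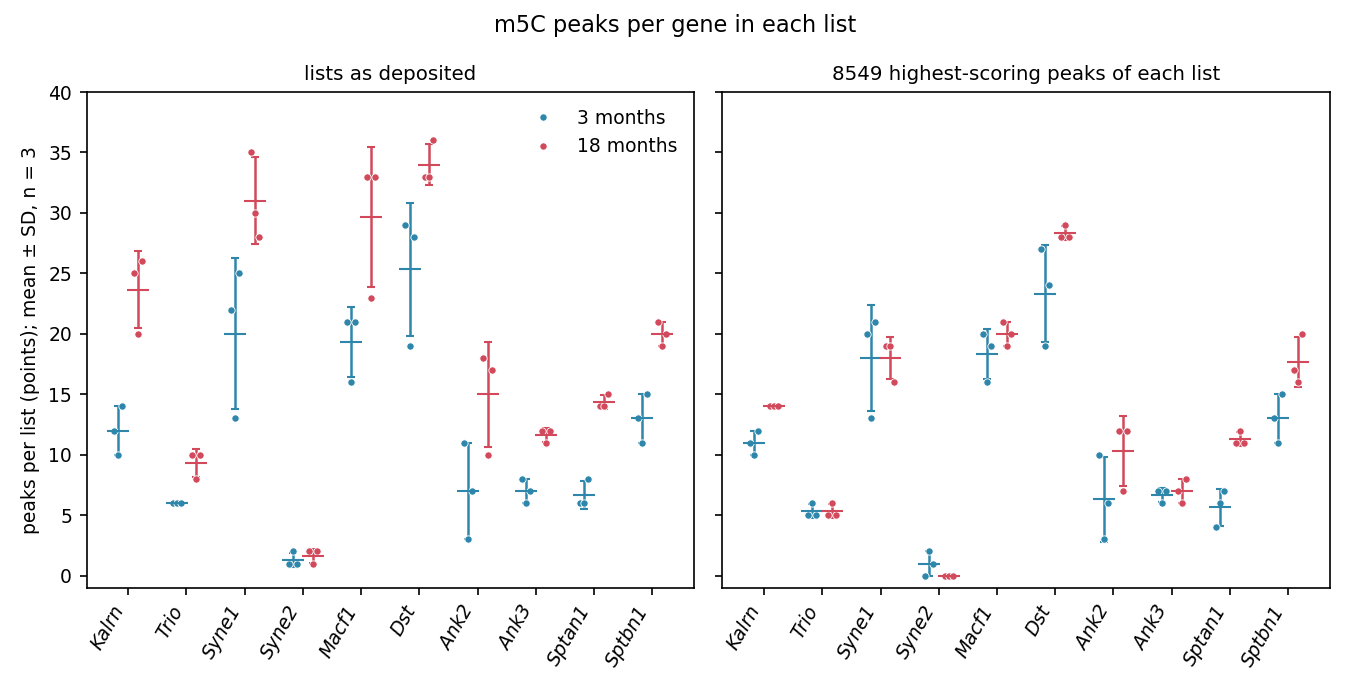
Peaks per list in each gene, with points for the 6 lists and bars for mean ± SD (n = 3 lists per age), for the lists as deposited on the left and for the 8549 highest-scoring peaks of each list on the right. Aged points lie above all young points in 8 genes on the left and in 4 on the right.

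Of the 276 regions, 49 (17.8%) had a peak in all 6 lists, against 17.6% of all regions and 25.6% of the 3301 regions in genes with at least 10 regions. Another 20 (7.25%) were aged-only, which means that all 3 aged lists and 0 young lists had a peak there, against 5.16% of all regions and 6.18% in the many-region genes. None was young-only, against 0.616% and 0.242%. The other regions were seen in 2 to 5 lists in a mixed pattern (141) or in a single list (66, of which 51 in an aged and 15 in a young list). The aged-only share was thus near the background, and the share in all 6 lists was that of all regions and below that of the many-region genes.

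Of 177 regions with a peak in any young list, 161 (91.0%) also had one in an aged list, whereas of 260 regions with a peak in any aged list the same 161 made up 61.9%. The aged lists were longer, and the gap between these shares moved with list length. At equal length 137 regions were found at both ages, or 84.0% of the 163 with a young peak and 74.9% of the 183 with an aged peak. Over all genes, the shares were 78.3% and 55.0% in the lists as deposited, and 66.6% and 72.8% at equal length. The same shares for genes with at least 10 regions are not given. A pair of aged lists shared 61.7% of the regions found in either (58.6% to 64.1% over 3 pairs), a pair of young lists 49.7% (42.9% to 55.4% over 3 pairs) and an aged with a young list 46.3% (37.4% to 53.2% over 9 pairs). Young pairs and mixed pairs thus overlapped in range. Of 48 regions found in 5 lists, 23 lacked only the second young list, and without that list 72 regions recurred in all others.

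**Figure D2:**
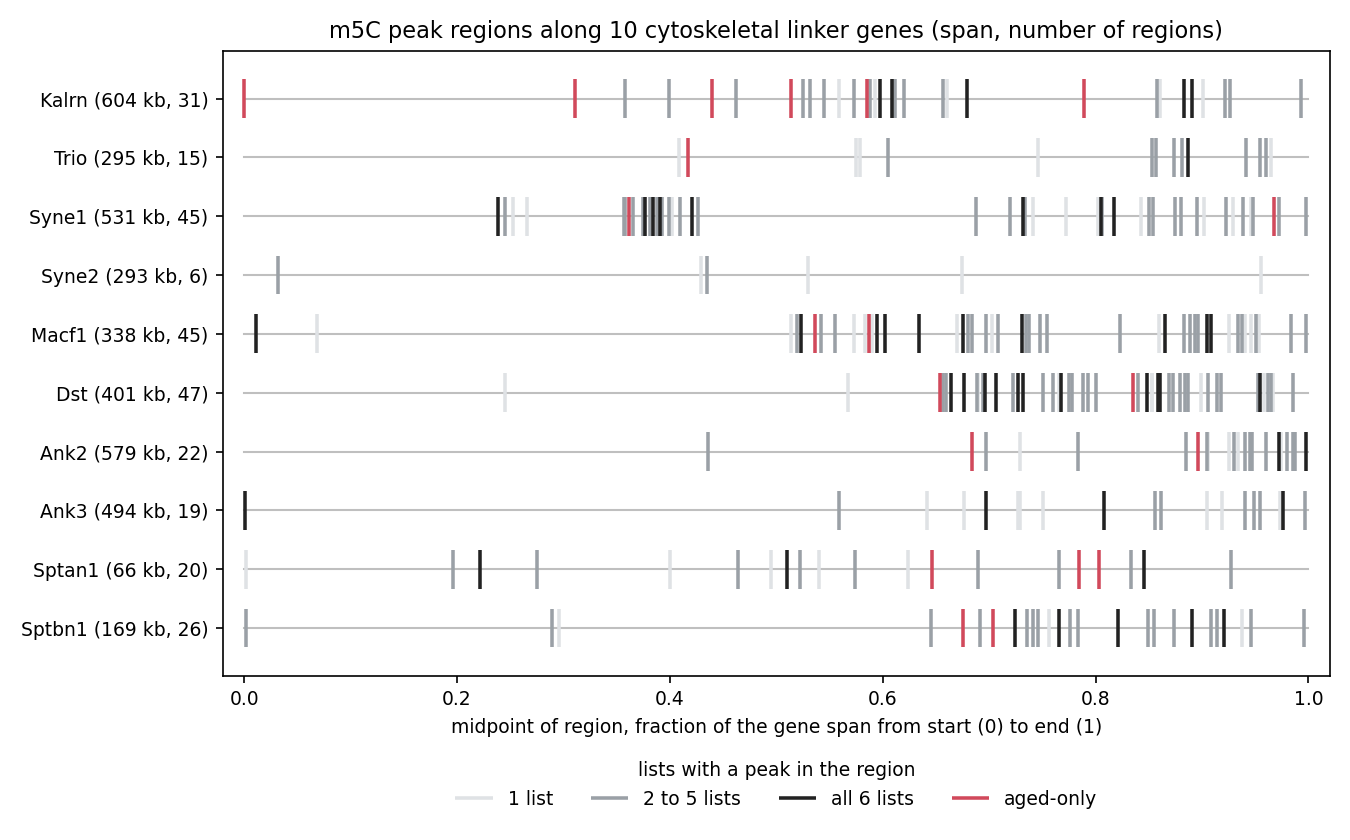
Every region along the 10 genes, placed by its midpoint as a fraction of the span from start (0) to end (1) and coloured by the lists that held a peak; the labels give each span in kb and the number of regions. The 49 regions in all 6 lists (black) and the 20 aged-only regions (red) lie mostly beyond the midpoint of the spans, and Syne2 has neither.

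Over the 10 genes together, the median midpoint lay at 0.755 of the span, 46 of 276 lay before the midpoint of their gene, and 122 (44.2%) lay in the last 20% of it. Over all protein-coding genes, with a region counted once for each gene, the median was 0.681 and 37.1% lay in the last 20%, and in genes with at least 10 regions these values were 0.676 and 34.2%. The genes differed among themselves, from 77.3% in the last 20% in Ank2 and 9 of 15 regions in Trio to 25.8% in Kalrn, 20.0% in Sptan1 and 1 of 6 in Syne2. In Syne1, 20 of 45 regions lay before the midpoint. The first 1000 bases of the spans held 4 midpoints and the last 1000 bases 2. Spans contain introns, and exon positions were not used here, so a place in the span is not a place in the mRNA. The longest stretches without a region measured 275 kb in Ank3 (55.7% of its span), 252 kb in Ank2, 188 kb in Kalrn and 150 kb in Macf1, and each of these lay in the 5′ part of the gene.

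The median width of the regions was 176 bases (212 bases over all regions). The narrowest measured 13 bases and the widest 6198, and 205 of 276 (74.3%) were 100 to 300 bases wide. In 189 of the 210 regions seen in at least 2 lists (90.0%), each list gave exactly the same first and last base, against 66.6% over all genes. The regions at the Macf1, Sptbn1 and Sptan1 starts began exactly at the annotated start. Whether the ends of regions were set by an annotation was not tested, so identical ends do not measure how well the signal itself recurred. Scores were higher where recurrence was higher, with a median of the mean score of 463 for regions in all 6 lists, 159 for those in 2 to 5 lists, 100 for aged-only regions and 66.1 for those in 1 list. The lowest score that any list held was 50.

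Kalrn (chr16:33969073-34573277, minus strand) encodes kalirin, an activator of Rac1 and RhoA enriched at dendritic spines. It had 31 regions, and its lists held 12, 10 and 14 peaks at 3 months and 25, 20 and 26 at 18 months. The ages did not overlap, and the ratio of means was 1.97 (exact permutation p = 0.1), above the upper quartile of the many-region genes. The gap remained at equal list length, with 11, 10 and 12 against 14, 14 and 14 peaks. Kalrn also had the most aged-only regions of the 10 genes, 6 of its 31 (19.4%), against 5.16% of all regions and 6.18% in the many-region genes. Of these 6, only the one at chr16:34219310-34220274 kept a peak in all 3 aged lists at equal list length. Another 5 regions of Kalrn recurred in all 6 lists as deposited.

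The aged-only regions of Kalrn were spread over its length, and their scores differed widely. The highest scoring, at chr16:34219310-34220274, had scores of 1977, 348 and 1431 in the 3 aged lists and no peak in a young list. The other 5 had scores between 50 and 280, and one of them reached past the annotated start of the span. By contrast, the region at chr16:34205148-34205330, further into the gene, was present in all lists with 3100, 417 and 1688 in young and 3100 in each aged list. Many peaks carried a score of exactly 3100, so scores at that value cannot be ranked. The widest Kalrn region, of 5081 bases, lay near the 3′ end of the span and had scores of 73.9 in 1 young and 79.2, 93.5 and 213 in the aged lists.

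Trio (chr15:27730649-28025848, minus strand), the paralog of Kalrn with the same pair of exchange factor domains, had 15 regions. Its lists held 6, 6 and 6 peaks at 3 months and 10, 8 and 10 at 18 months, a ratio of 1.56 without overlap (exact permutation p = 0.1). At equal list length the values were 5, 6 and 5 against 5, 6 and 5, and the means were equal. One region recurred in all 6 lists, at chr15:27763954-27764057, with scores of 260, 155 and 250 in young and 476, 548 and 326 in aged lists. The single aged-only region, at chr15:27902498-27903010, had scores of 61.2, 86.6 and 63.2. The widest, of 1650 bases, had peaks in 2 young and 3 aged lists.

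Syne1 (chr10:5020192-5550692, minus strand) encodes nesprin-1, which reaches from the outer nuclear membrane to actin. With 45 regions it shared rank 2 of all genes with Macf1. Its lists held 22, 13 and 25 peaks at 3 months and 35, 30 and 28 at 18 months, a ratio of 1.55 (exact permutation p = 0.1). At equal length the young lists held 20, 13 and 21 and the aged 19, 19 and 16, so the means were equal and the ages overlapped.

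Syne1 regions formed a cluster before and a cluster after an empty stretch of 138 kb in the middle of the gene. The first cluster contained 4 regions of exactly 165 bases, which were picked out after their values were seen, and 3 of these recurred in all 6 lists. The strongest of them, at chr10:5343358-5343522, had scores of 471, 166 and 1205 in young and 518, 523 and 775 in aged lists. The fourth, at chr10:5358941-5359105, was aged-only, with 369, 108 and 91.8. A second aged-only region near the 3′ end, at chr10:5037216-5037416, had 97.8, 99.9 and 92.1. The widest region, of 2052 bases, had a peak in 2 lists of each age.

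Syne2 (chr12:75818318-76110928, plus strand), the gene of nesprin-2, did not carry many peaks. It had 6 regions and rank 654, and the lists held 1, 2 and 1 peaks at 3 months and 2, 1 and 2 at 18 months (ratio 1.25, exact permutation p = 1). No region was found in more than 3 lists, none was aged-only, and the highest score was 102. At equal length 0, 2 and 1 peaks stood against none in any aged list. The widest region measured 292 bases and was seen in 2 aged lists.

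Macf1 (chr4:123349633-123687802, minus strand) encodes a spectraplakin that crosslinks actin and microtubules. It had 45 regions, with 21, 16 and 21 peaks in the young and 33, 23 and 33 in the aged lists, a ratio of 1.53 (exact permutation p = 0.1). At equal length 20, 16 and 19 stood against 21, 19 and 20 peaks, and the ages overlapped. Regions in all 6 lists numbered 10, more than in any gene of the 10 except Dst. The region at the annotated internal start shown above, chr4:123683970-123684360, was one of them. Its midpoint lay 3.64 kb into the span, and its scores were 209, 138 and 123 in young and 507, 623 and 337 in aged lists.

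The highest mean score among the Macf1 regions found in all lists belonged to chr4:123440550-123440791, with 175, 614 and 1088 in young and 1362, 648 and 350 in aged lists. A region of 4796 bases at chr4:123471007-123475802 was the widest and also recurred in all 6 lists, with 145, 145 and 377 against 633, 530 and 437. Another wide region, of 4548 bases, lay in a span that D830031N03Rik shares with Macf1, and its peaks cannot be given to one of them. The 2 aged-only regions, at chr4:123506332-123506493 and chr4:123489210-123489372, had scores of 60.6 to 144.

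Dst (chr1:33907888-34308662, plus strand), the other mammalian spectraplakin, encodes dystonin and had the most regions of any gene, 47. Its lists held 29, 19 and 28 peaks at 3 months and 33, 33 and 36 at 18 months. This ratio of 1.34 was the lowest of the 8 genes without overlap between the ages (exact permutation p = 0.1). At equal length the values were 27, 19 and 24 against 28, 29 and 28, and still did not overlap. Per 1000 peaks of the list the order turned, with means of 2.62 in young and 2.35 in aged lists that overlapped.

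The aged-only region at chr1:34169750-34169928 had scores of 1015, 501 and 748. Only 2 of the 47 Dst regions lay before it in the gene, and each of these had a single peak. The other aged-only region, at chr1:34242619-34242780, had 53.4, 80.7 and 54.5. Of 11 regions in all 6 lists, the highest scoring was chr1:34199292-34199558, with 3100, 1132 and 2534 in young and 3100, 3100 and 3106 in aged lists. The widest, of 3913 bases, was also in every list, with scores of 96.3 to 421.

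Ank2 (chr3:126921607-127500347, minus strand) encodes ankyrin-B, found along axon shafts. It had 22 regions, of which 17 lay in the last 20% of the span. Its lists held 11, 3 and 7 peaks at 3 months and 18, 10 and 17 at 18 months, a ratio of 2.14. The first young list exceeded the second aged list, so the ages overlapped (exact permutation p = 0.2). At equal length the values were 10, 3 and 6 against 12, 7 and 12. No Ank2 region was found in young lists alone.

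The 6198-base region of Ank2, chr3:126941610-126947807, from which the interior sequence above was taken, had scores of 1266 and 2534 in 2 young lists and no peak in the second young list. In the aged lists it had 3100, 1755 and 3100. All 5 lists gave the same start and end for it. The last region of the gene, chr3:126921606-126923971, recurred in all 6 lists with 918, 336 and 3100 against 3100, 2162 and 1897. Both aged-only regions were weaker, chr3:127104761-127104862 with 121, 65.8 and 125 and chr3:126981800-126981944 with 268, 103 and 357.

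Ank3 (chr10:69533486-70027436, plus strand) encodes ankyrin-G, the organiser of the axon initial segment. It had 19 regions, with 8, 6 and 7 peaks in the young and 12, 11 and 12 in the aged lists, a ratio of 1.67 without overlap (exact permutation p = 0.1). At equal length 7, 6 and 7 stood against 7, 6 and 8 and the ages overlapped. None of its regions was aged-only. The first region, chr10:69533708-69534284, lay within the first 1000 bases of the span and stood 275 kb from the next. Its scores were 3100, 2439 and 3100 in young and 3100 in all 3 aged lists, so that all but 1 of them stood at the value that many peaks shared. The widest region, of 3556 bases, was found in 1 list of each age, and a region of 2550 bases in the third aged list alone, with a score of 1292.

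Sptan1 (chr2:29965560-30031451, plus strand) encodes αII-spectrin, the alpha subunit of the neuronal lattice. On the shortest span of the 10 it had 20 regions, or 30.4 per 100 kb, the densest of these genes. Its lists held 6, 6 and 8 peaks at 3 months and 14, 14 and 15 at 18 months, a ratio of 2.15 and the highest of the 10 (exact permutation p = 0.1). The gap held at equal length, with 4, 6 and 7 against 11, 12 and 11, and per 1000 peaks of the list, with 0.607, 0.702 and 0.770 against 0.922, 0.999 and 1.05.

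Among the 3 aged-only regions of Sptan1, chr2:30008074-30008255 had scores of 478, 197 and 565. The other 2, chr2:30017198-30017302 and chr2:30018362-30018570, had 54.6 to 329. Of the 3 regions found in all lists, the one with the highest mean score, chr2:30021191-30021323, had 697, 216 and 329 in young and 2025, 1745 and 1617 in aged lists, and chr2:29980077-29980202 had 56.4, 168 and 60.3 against 1019, 725 and 755. In the remaining one, chr2:29999126-29999260, scores of 193, 164 and 637 overlapped with 1219, 378 and 785. Scores belong to their own list, so these values are given side by side and were not tested. The widest region measured 297 bases and was seen in 2 aged lists.

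Sptbn1 (chr11:30099395-30268384, minus strand) encodes βII-spectrin, the beta subunit that pairs with Sptan1's product. It had 26 regions, and its lists held 13, 11 and 15 peaks at 3 months and 21, 19 and 20 at 18 months, a ratio of 1.54 (exact permutation p = 0.1). At equal length 13, 11 and 15 stood against 17, 16 and 20, again without overlap. Per 1000 peaks of the list the means were 1.35 and 1.38 and the ages overlapped.

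Sptbn1 peaks carried the highest scores of the 10 genes, with a median of 764, 276 and 913 in the young and 1291, 819 and 1052 in the aged lists. The medians of the whole lists lay between 117 and 144. The region at chr11:30112827-30112911, 85 bases wide, had 3100, 1399 and 1720 in young and 3100, 3175 and 3100 in aged lists. The 2 aged-only regions, chr11:30154229-30154402 and chr11:30149500-30149615, had scores of 77.2 to 145. The widest, of 1413 bases, had a peak in 2 lists of each age.

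**Figure D3:**
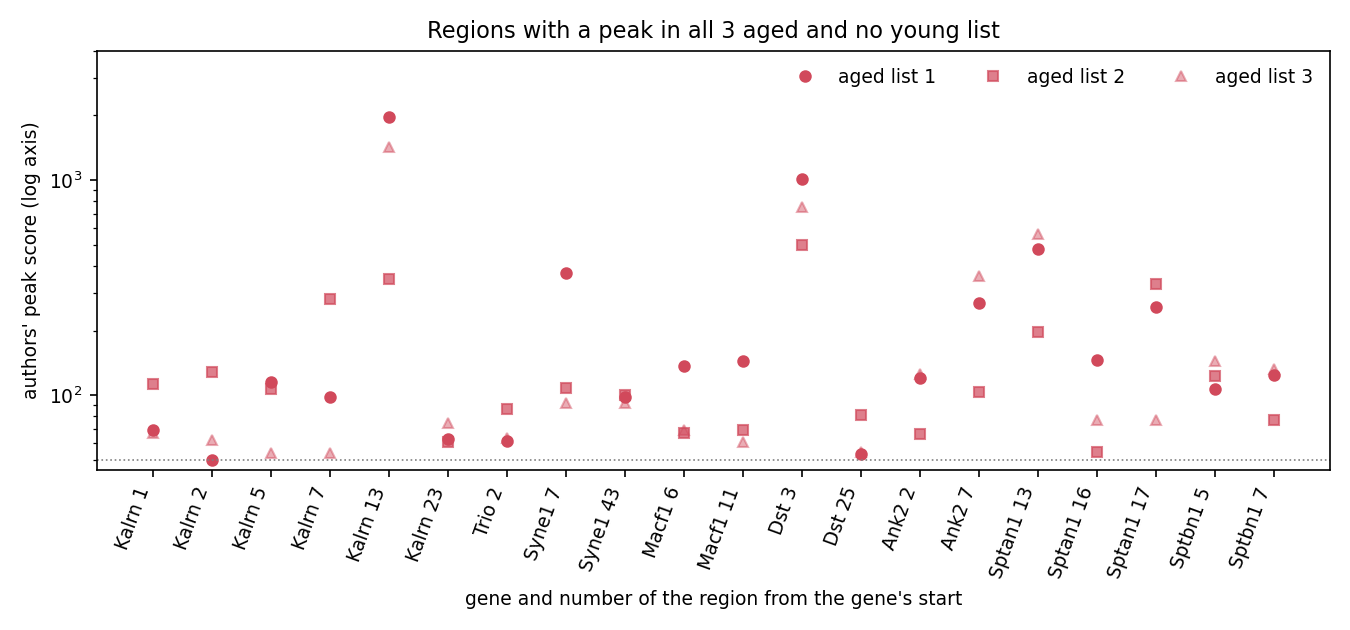
The authors' peak score (log axis) of the 20 aged-only regions in each of the 3 aged lists, by gene and region number from the start of the gene; the dotted line marks the lowest listed score of 50. Kalrn region 13, Dst region 3 and Sptan1 region 13 stand highest, while most of the others lie below 150 in at least 2 lists.

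Aged-only regions were mostly weak. In lists of equal length 4 of the 209 regions of the 10 genes were aged-only and 0 young-only, against 2.07% and 1.78% of all regions. The aged-only share was thus near that of all regions. Of these 4, 3 were also aged-only in the lists as deposited, namely the highest scoring ones of Kalrn, Dst and Sptan1. The fourth was a Macf1 region at chr4:123385455-123385686 whose young peak had a score of 63.4. The aged lists were longer throughout, and how far their length sets which regions appear as aged-only was examined only by these equal-length lists.

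Macf1 and Dst, and Ank2 and Ank3, had many regions of equal width in the same order along the gene. When the regions of 2 genes were matched in order by exactly equal width, Macf1 and Dst gave 21 matches, or 46.7% of the 45 Macf1 regions and 44.7% of the 47 in Dst. Ank2 and Ank3 gave 8, or 42.1% of the 19 Ank3 regions and 36.4% of the 22 in Ank2. Over 41 other pairs among the 10 genes, the matches numbered 0 to 4 with a median of 1. These 41 include the related spectrin genes Sptan1 and Sptbn1, which gave 1 match. The paralogs Kalrn and Trio with 3 and Syne1 and Syne2 with 2 lay within the range of 0 to 4. No exon boundaries were used here, so whether the equal widths follow exons was not tested.

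The matched widths were not all short. Macf1 and Dst shared widths of 1472, 496 and 318 bases, and Kalrn and Trio one of 513 bases. Both members of a match recurred in all 6 lists for the 108-base and one 242-base pair of Macf1 and Dst, and for the 104-base pair of Kalrn and Trio. Ages need not match between such partners. The 513-base region was aged-only in Trio but had a peak in 1 young list in Kalrn, and the 163-base Macf1 region that was aged-only had a Dst partner with peaks in 2 young lists.

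**Figure D4:**
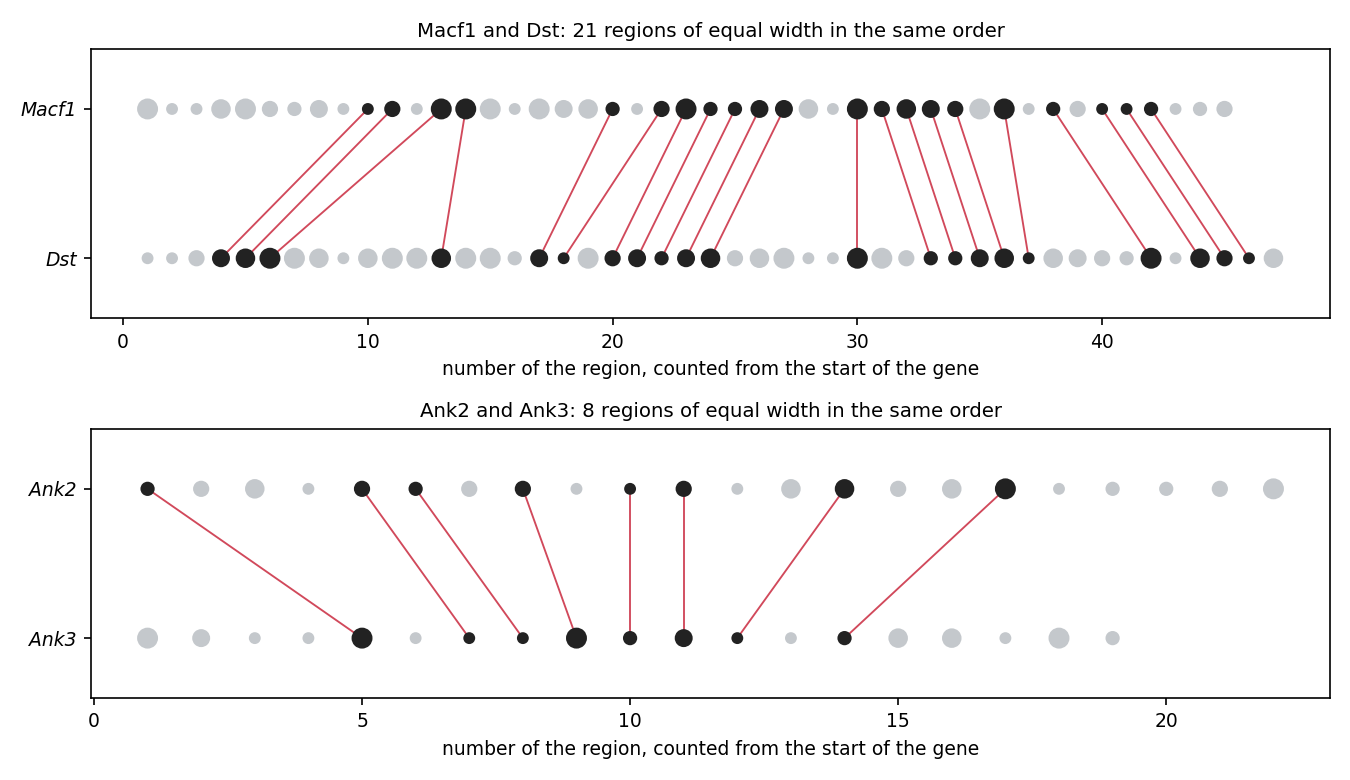
Regions of Macf1 and Dst (top) and of Ank2 and Ank3 (bottom), numbered from the start of each gene; larger dots mark regions found in more of the 6 lists, and red lines join regions of exactly equal width that keep the same order. The lines join 21 pairs in the spectraplakins and 8 in the ankyrins.

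Partners of these proteins were examined as a list of 45 genes, of which 41 had a peak in any list. Every aged list was above every young list in 11 of them (26.8%) and the reverse in 0. The backgrounds given above were 11.8% of all genes and 56.7% of the 254 genes with at least 10 regions. No background matched to the partners by number of regions is given, so their counts are a description. At equal list length the number was 3 (Epb41l1, Add1 and Camsap2), against 3.38% of all genes and 11.4% of the 254 genes. The counts per group refer to the lists as deposited and have the same backgrounds as the 11 genes. Among spectrins and their Epb41 and adducin partners the count was 4 of 12. The spectrin Sptbn4, found at the axon initial segment, had 3, 6 and 5 peaks in young and 10, 10 and 8 in aged lists, and Sptb had 6, 3 and 5 against 11, 8 and 7. Epb41l1, of a family that joins spectrin to actin, had 1, 2 and 3 against 7, 5 and 6. Add1, an adducin that caps actin, had 2, 1 and 1 against 4, 3 and 4.

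Among Ank1 and the membrane proteins that ankyrins bind, every aged list as deposited was above every young list in 3 of 7. Nrcam, an adhesion protein, had the most regions of them (14) and overlapped between the ages, with 4, 4 and 5 against 7, 4 and 7 peaks. The sodium channel genes Scn8a and Scn2a had 6, 4 and 6 against 9, 8 and 8, and 6, 5 and 6 against 8, 7 and 8. Nfasc, an adhesion protein of the initial segment, had 3, 1 and 3 against 5, 5 and 6.

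Among the plakins and dystrophins the dystrophin gene Dmd had 3, 5 and 5 against 12, 10 and 10 peaks and its relative Utrn had 5, 4 and 5 against 10, 8 and 10, and 2 of 6 genes did not overlap. Camsap2, which binds microtubule minus ends, had 2, 2 and 2 against 4, 4 and 3, as the only one of 8 microtubule end binders, and Clasp2, the one with most regions, had 4, 2 and 4 against 6, 4 and 6. Its relative Clasp1 had 1, 3 and 4 against 1, 1 and 1. Pak1, a kinase that acts below Rac, had 5, 2 and 4 against 6, 6 and 6, as 1 of 6 genes in the group of GTPases and their effectors. Its relative Pak3 had 2, 3 and 3 against 3, 4 and 4. Of 6 genes of other nesprins and nuclear partners of nesprins, 3 had a peak in any list, with 5 regions in all. Syne3, Sun1 and Sun2 had no peak in any list, Lmnb1 had 1, 2 and 1 against 0, 1 and 1, and Lmna had 1, 1 and 0 against 1, 1 and 1. Syne4 had 1 peak in 1 aged list.

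Since the 10 genes were chosen for their number of peaks, their ranks by number of regions are given only as context. Ryr2, the gene of a calcium release channel, had 43 regions and ranked between Macf1 and Kalrn, with 22, 19 and 21 peaks in young and 31, 27 and 35 in aged lists. Itpr1, the gene of the inositol trisphosphate receptor, had 31, as many as Kalrn, with 20, 10 and 17 against 26, 21 and 22. The next were 3 predicted genes, Gm37013, Gm38666 and Gm38667, with 28 or 29 regions each and nearly the same counts in each list. A peak was counted for every span that it overlapped on its strand. These counts, and the ranks below them, may therefore hold the same peaks more than once. Sptbn1 ranked 10, Ank2 18, Sptan1 21, Ank3 26, Trio 58 and Syne2 654 of the 9527 genes with a peak.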

How the data were processed

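The deposited lists are 6 peak tables, 1 per IP library with its input, so peaks were called per sample. Reads were handled with HISAT2 2.0.4 and cutadapt 1.9.3 on mm10, per the submitters' processing notes, which give no order or settings. The peak names carry the word MACS, per the file contents. Not given in the sources used here are the version and settings of the caller and the way mRNA peaks were selected. The deposited score in column 5 is the authors' value per peak, at least 50 in each list, and was used only to describe, rank or filter peaks. The labels' protocols describe fragmentation of total RNA, capture with a commercial m5C antibody kit, directional libraries and paired-end sequencing. An antibody peak does not show which base is modified.

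Peaks were assigned with 21900 protein-coding spans of GRCm38.p6 (mm10), using Python 3.11.15, pandas 2.3.3 and numpy 2.4.6. The strand of 9 of the 10 genes came from the RefSeq promoter table and that of Ank3 from its peaks. No peak of any list lay on the opposite strand of the 10 genes. The exon placement that had been planned was not run. Coordinates count from 1. Counts per gene were compared with a two-sided exact permutation test over lists, and the code was tested on simulated lists. Equal widths were matched by the longest ordered match, a comparison added after the data were seen.

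The 10 genes, the partner and marker lists and the tests were chosen with earlier results of these data known. The rule named all 10 genes and, for each, the region in all lists with the highest mean score, every region restricted to one age and the widest region. Of the partners it named those without overlap between the ages and the 2 with most regions per group, and it named the 5 other genes with most regions. One partner and 1 marker on these lists are not reported here and are left out of the counts. Alternatives were equal-length lists, higher score thresholds, 50% overlap, either strand, merging within 100 bases, leaving out each list, a replicate block and 2 of 3 lists.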

Additional observations from a re-analysis of the deposited data

How the results depend on the processing

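Higher peak counts at 18 months depended on how many peaks of each list were kept. The difference in summed peaks of the 10 genes, 72.7 as deposited, was 23.3 in lists of equal length, 45.7 for peaks at or above the median score of their list, and 59.8 to 83.3 when 1 list was left out. The number of genes with every aged list above every young one, 8 as deposited, was 4 at equal length and 2 per 1000 peaks of the list (chosen after seeing the data), and 8 to 9 with 1 list left out. Aged-only regions, 20 as deposited, numbered 4 at equal length, 11 at a score of at least 100, 10 at or above the median score, and 48 where 2 of 3 aged lists were enough. They numbered 22 to 34 with 1 list left out, the highest being 34 without the second aged list and 31 without the third young list. Young-only regions, 0 as deposited, numbered 0 to 1 with 1 list left out and 1 where 2 of 3 lists were enough. Regions in all lists, 49 as deposited, numbered 29 at a score of at least 100 and 27 at or above the median score. Fewer peaks enter under each of these thresholds by construction. Leaving out 1 list can by construction only keep or raise the counts of non-overlapping genes and of aged-only and young-only regions. Asking for 2 of 3 lists does the same for the regions restricted to one age, so these rises are not results.

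Counts per gene changed direction mainly at equal length, where 7 genes kept it, Trio and Syne1 gave no difference and Syne2 reversed, with -1. Syne2 had no difference for peaks at or above the median score. Either strand could change nothing, since no peak lay on the opposite strand. As a replicate block, pairing lists of the same number, the mean difference was the same 72.7, and the exact sign-flip test cannot give a p below 0.25. Nothing in the labels says that the numbers pair the samples. The lists hold no read counts, so a region without a peak is not shown to lack m5C.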
